A study of Mus musculus with 12 samples.

Results

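The genes described here encode integrins, the paired α and β chains by which cells hold on to the matrix, and the proteins that join integrins to actin at focal adhesions. They were the rows of the count table whose Ensembl identifiers map to 38 symbols: 13 α chains, 8 β chains and 17 other adhesion proteins. All 38 were found among the 56093 entries of the table, 32 passed the filter on low counts, and the other 6 (Itga3, Itga11, Itgb2, Itgb6, Itgb7 and Ilk) were too low to test. They were measured by RNA sequencing of B16 cells, a mouse melanoma line, in 12 libraries.

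There were 4 groups of 3 libraries. The shSdc1 cells with IFNγ carried a short hairpin RNA against Sdc1 and received interferon-γ at 10 ng/ml for 24 h. The shRFP cells with IFNγ carried a control hairpin against RFP and received the same dose. The shSdc1 and shRFP cells without IFNγ were left unstimulated, and all 4 groups were transfected with a hairpin. The product of Sdc1 is syndecan-1, a membrane protein with heparan sulfate chains that bind matrix and growth factors. The number of hairpins per target is not stated in the labels. Off-target effects of the hairpin and effects of losing Sdc1 therefore cannot be told apart. Whether the 3 libraries of a group are separate cultures is not stated either, and p-values may reflect technical spread alone.

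Each integrin is a dimer of 1 α and 1 β chain, and the pair sets the ligand. Chains α1, α2, α10 and α11 bind collagens, α3, α6 and α7 bind laminins, α5, α8, αv and αIIb bind proteins with an Arg-Gly-Asp motif such as fibronectin, and α4 and α9 bind fibronectin variants, osteopontin and VCAM-1. Talins and kindlins bind the β tail and switch the dimer on, and vinculin strengthens the link from talin to actin. Focal adhesion kinase (Ptk2), Src, p130Cas (Bcar1) and paxillin (Pxn) pass on the signal. The complex of ILK, PINCH1 (Lims1) and α-parvin, together with α-actinins, filamin A, zyxin and tensins, ties the site to the actin cytoskeleton. Melanoma cells use several of these receptors for attachment and invasion, and syndecans act beside integrins as matrix receptors.

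Promoter sequences were available from RefSeq (build GRCm38.p6) for 29 of the 38 genes, as 35 windows of 300 bases that run from 250 bases before the start of the gene to 50 after it. The 5 printed here belong to Itga5, Itga8 and Itgb8, 3 chains that were higher in shSdc1 than in shRFP cells in both IFNγ states, to Itga9, which was lower in both, and to vinculin (Vcl), a linker gene whose window holds matches to 2 of the motifs searched. The windows of Itga5 (chr15:103366742-103367041, minus strand), Itga8 (chr2:12301895-12302194, minus strand), Itgb8 (chr12:119238227-119238526, minus strand), Itga9 (chr9:118711442-118711741, plus strand) and Vcl (chr14:20929148-20929447, plus strand) read 5′ to 3′ as follows, with motif matches in capitals.
Itga5: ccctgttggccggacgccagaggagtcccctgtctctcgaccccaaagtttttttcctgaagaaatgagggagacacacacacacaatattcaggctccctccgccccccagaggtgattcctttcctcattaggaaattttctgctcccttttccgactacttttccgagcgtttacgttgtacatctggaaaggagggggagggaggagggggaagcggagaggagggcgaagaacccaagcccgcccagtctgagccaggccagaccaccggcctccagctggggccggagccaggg
Itga8: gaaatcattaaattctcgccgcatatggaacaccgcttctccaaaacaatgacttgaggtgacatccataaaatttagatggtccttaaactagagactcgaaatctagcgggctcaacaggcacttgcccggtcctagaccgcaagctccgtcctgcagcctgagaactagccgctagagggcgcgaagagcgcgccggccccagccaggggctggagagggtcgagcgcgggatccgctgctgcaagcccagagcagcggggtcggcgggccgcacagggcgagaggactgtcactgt
Itgb8: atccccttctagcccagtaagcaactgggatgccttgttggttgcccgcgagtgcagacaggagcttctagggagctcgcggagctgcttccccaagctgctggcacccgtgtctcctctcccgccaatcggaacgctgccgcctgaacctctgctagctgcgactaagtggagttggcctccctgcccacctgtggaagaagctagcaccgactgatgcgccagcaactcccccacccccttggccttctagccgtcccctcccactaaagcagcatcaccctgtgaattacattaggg
Itga9: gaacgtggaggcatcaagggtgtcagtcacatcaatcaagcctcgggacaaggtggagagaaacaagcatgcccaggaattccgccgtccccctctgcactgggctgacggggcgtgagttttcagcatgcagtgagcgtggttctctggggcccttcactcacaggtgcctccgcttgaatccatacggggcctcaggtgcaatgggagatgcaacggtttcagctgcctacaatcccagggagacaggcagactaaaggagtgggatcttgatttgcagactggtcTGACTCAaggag
Vcl: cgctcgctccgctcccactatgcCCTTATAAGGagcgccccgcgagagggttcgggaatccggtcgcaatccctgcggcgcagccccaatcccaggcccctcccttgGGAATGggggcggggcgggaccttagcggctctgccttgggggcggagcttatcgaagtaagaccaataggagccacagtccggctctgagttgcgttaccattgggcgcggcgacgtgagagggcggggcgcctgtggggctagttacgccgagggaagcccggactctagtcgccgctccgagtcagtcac
The capitals mark TGANTCA, the AP-1 motif, in Itga9, and a CArG box, the binding sequence of serum response factor, followed by GGAATG, a TEAD motif, in Vcl. Both strands were searched, and no matches of different motifs overlapped in these windows. AP-1 matches stood in 4 of the 35 windows (11.4%, against 7.81% of 32817 mouse promoters), in Itga3, Itga9, Actn4 and Zyx. TEAD matches stood in 5 windows (14.3%, against 14.7%), in Itga10, Itgb1, Vcl, Actn4 and Flna. CArG boxes stood in 3 windows (8.57%, against 1.63%), in Itgb6, Fermt2 and Vcl, and the interferon-γ motif TTCNNNGAA stood in 1 window (2.86%, against 8.29%), in Itga10. A match describes letters only, and no match was found in the windows of Itga5, Itga8 and Itgb8.

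The libraries held 14337771 to 21548940 counts, of which these 38 genes took 0.471 to 0.585%. Values below are CPM, counts scaled to library size with TMM factors, and log2 fold changes carry their standard error (SE). A gene is said to have risen or fallen, or to be called, where the adjusted p of edgeR's quasi-likelihood test, with the Benjamini-Hochberg method over 14089 genes, was under 0.05. Sdc1 stood at 23.4, 22.1 and 25.7 CPM in shSdc1 cells, against 76.4, 73.9 and 75.9 CPM in shRFP cells, and with IFNγ at 27.0, 25.1 and 25.4 CPM in shSdc1 cells, against 83.35, 79.6 and 103 CPM in shRFP cells. All 8 melanocyte markers were expressed, with a summed level of 11765 to 13394 CPM in the 6 shSdc1 libraries and 16658 to 18215 CPM in the 6 shRFP libraries. Of 16 leukocyte markers 2 passed the filter, and Cd3e, Cd8a, Ms4a1, Ncr1, Adgre1 and Itgax had no count. Their summed level was 16.0 to 16.6 CPM in shSdc1 cells and 5.79 to 8.66 CPM in shRFP cells with IFNγ, and 8.75 to 9.16 CPM in shSdc1 cells and 2.695 to 3.56 CPM in shRFP cells without. Kdr among the endothelial markers, Dcn and Dpt among the fibroblast markers and Epcam, Krt5 and Krt18 among the epithelial markers were at 0 as well. Both summed levels differed between shSdc1 and shRFP cells without overlap, and their part in the results was not tested. In shSdc1 replicate 3, 4.79% of counts fell on ENSMUSG00000119584, against 0.0842 to 0.195% elsewhere, and the number of these genes called in each comparison is also given without that library. In bulk RNA, fewer cells of a kind and less RNA per cell cannot be told apart.

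Levels were compared between genes per kilobase of exon. Itgb1, the common partner of most α chains, stood at 133 ± 1.57 CPM per kb in shSdc1 cells and 133 ± 2.65 CPM per kb in shRFP cells without IFNγ (mean ± SD, n = 3), and filamin A at 152 ± 1.700 CPM per kb in shSdc1 cells and 121 ± 1.43 CPM per kb in shRFP cells. Filamin A thus led in shSdc1 cells and Itgb1 in shRFP cells. α-Actinin-4 stood at 84.8 ± 1.67 CPM per kb in shSdc1 cells and 75.7 ± 2.73 CPM per kb in shRFP cells, and talin-1 at 65.99 ± 1.59 CPM per kb in shSdc1 cells and 57.5 ± 2.03 CPM per kb in shRFP cells. Among α chains Itga6 was highest, at 31.2 ± 0.592 CPM per kb in shSdc1 cells and 22.2 ± 0.4495 CPM per kb in shRFP cells. Itgav followed at 16.1 ± 0.404 CPM per kb in shSdc1 cells and 12.4 ± 0.404 CPM per kb in shRFP cells and Itga4 at 7.701 ± 0.183 CPM per kb in shSdc1 cells and 7.11 ± 0.275 CPM per kb in shRFP cells. Itga5, the main fibronectin receptor chain, stood at 4.19 ± 0.0805 CPM per kb in shSdc1 cells and 1.71 ± 0.139 CPM per kb in shRFP cells. Itgb8, Itga8 and Itga2, which show the largest knockdown fold changes without IFNγ below, all stayed near or under 1 CPM per kb.

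**Figure D1:**
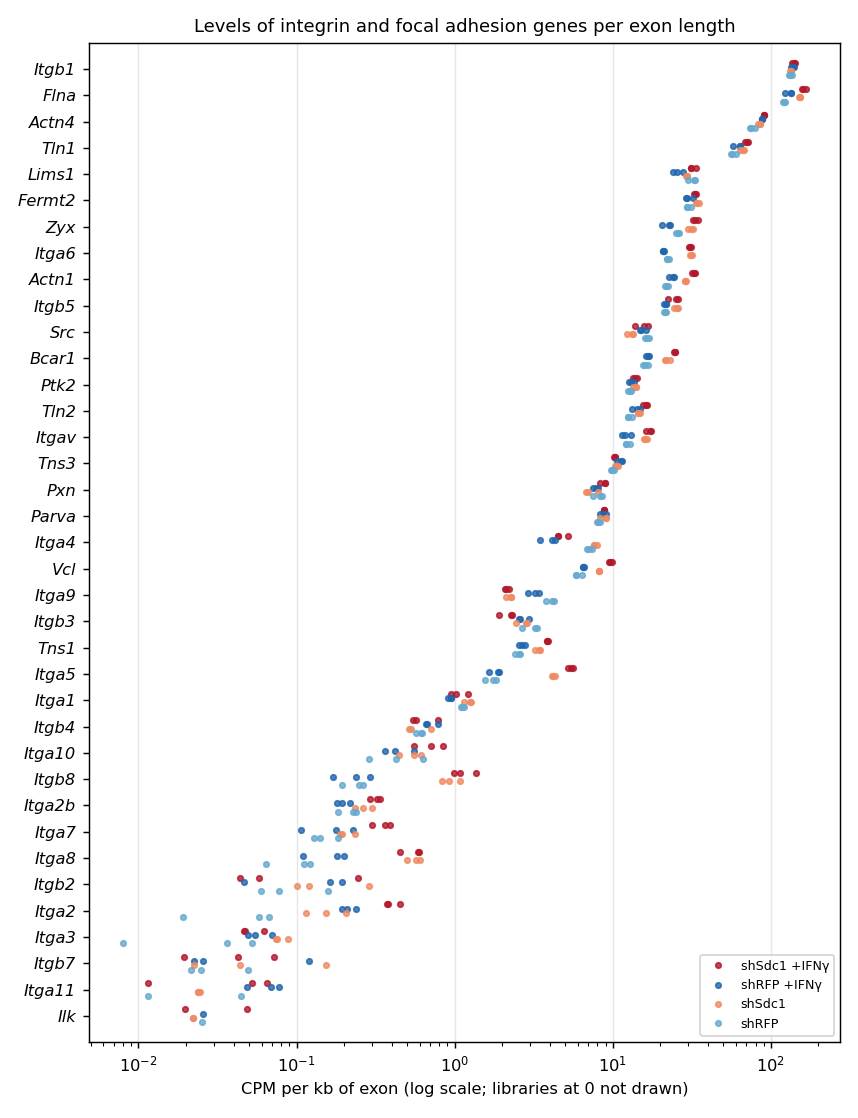
Level of each gene in CPM per kb of exon (log axis), 1 point per library, ordered by the mean of the shRFP libraries; libraries at 0 are not drawn, which leaves out Itgb6. Levels run from over 100 CPM per kb for Itgb1 and Flna to under 0.1 for Itga3, Itga11 and Ilk, and the shSdc1 points of Itga5, Itgb8 and Itga8 stand to the right of the shRFP points.

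Without IFNγ most of these adhesion genes were higher in shSdc1 cells. Of the 32 tested genes 18 rose and 2 fell, so 62.5% were called, against 28.6% of all tested genes (14% higher and 14.6% lower). Their median log2 fold change was 0.21, against 0.00 over all tested genes. Itga2, among the 18 higher, had 0 of 3 shRFP libraries over the minimum of the filter and passed through the other groups. The 38 genes were chosen with earlier results of these data known, so these counts are a description. These genes were also expressed at higher levels than most, with a median of 82.2 CPM against 25.3 CPM over all tested genes, and the part of expression level in the share called was not tested. Of the 16 tested integrin chains 7 rose and 1 fell, and of the 16 other adhesion genes 11 rose and 1 fell. Without shSdc1 replicate 3 the counts were again 18 higher and 2 lower, of 33 tested genes. With IFNγ on both sides 21 rose and 3 fell, or 75%, against 36.3% of all tested genes (18.9% higher and 17.4% lower), with a median of 0.28 against 0.02 (19 and 3 without shSdc1 replicate 3). The 2 comparisons use different libraries, but they share the hairpin targets and 1 fit. In both of them 16 genes rose and 1, Itga9, fell, and none of the 32 genes was called in opposite directions. The matching shares over all tested genes were not counted, so this overlap is a description. The summed level of all 38 genes was 5870, 5775 and 5742 CPM in shSdc1 cells and 4992, 4982 and 4809 CPM in shRFP cells with IFNγ, and 5545, 5549 and 5460.1 CPM in shSdc1 cells and 4749.7, 4709.9 and 4819.6 CPM in shRFP cells without.

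**Figure D2:**
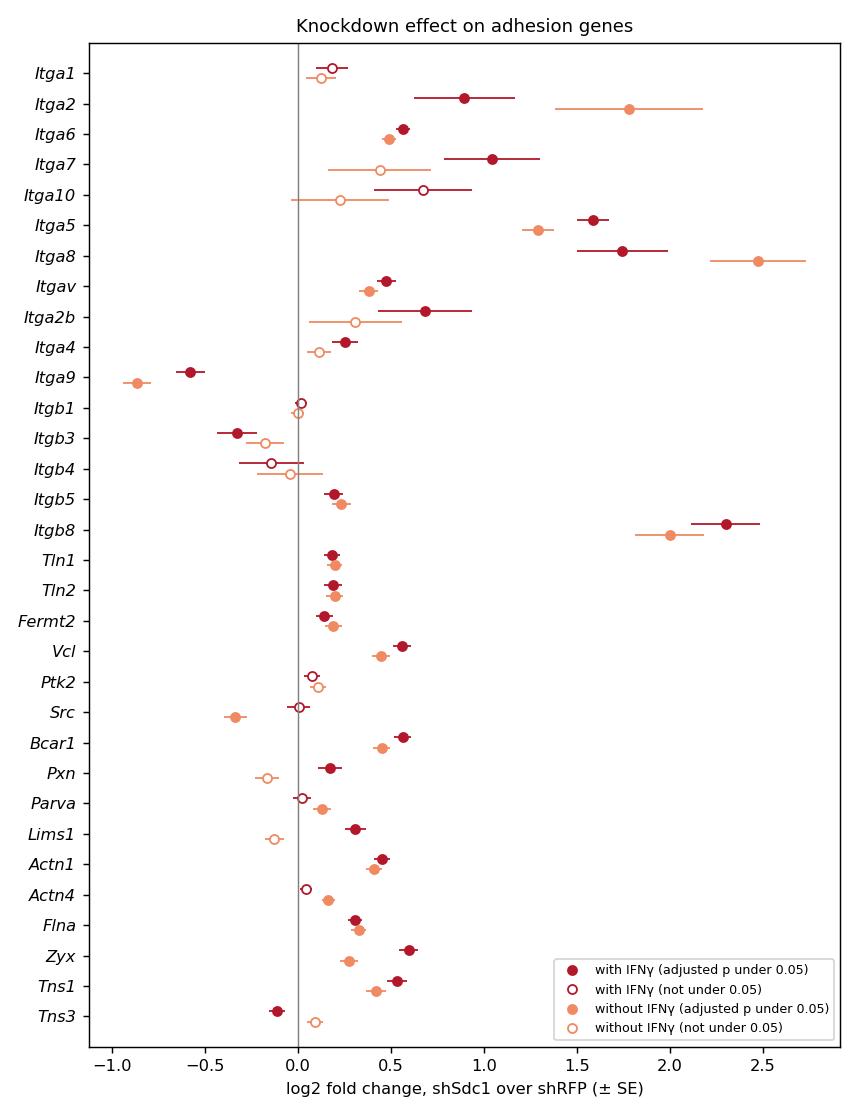
Log2 fold change of shSdc1 over shRFP cells (± SE) for the 32 tested genes, with and without IFNγ; filled points have an adjusted p under 0.05. Most points lie right of 0, Itga8, Itgb8, Itga5 and Itga2 farthest, while Itga9 lies left of 0 in both states and Itgb1 lies at 0.

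Of the 4 tested α chains that bind Arg-Gly-Asp ligands 3 rose without IFNγ and 4 with it. Itga5 (ENSMUSG00000000555) forms the classical fibronectin receptor with Itgb1, and stood at 21.1, 20.5 and 20.4 CPM in shSdc1 cells, against 8.57, 9.02 and 7.67 CPM in shRFP cells. With IFNγ it lay at 27.00, 27.8 and 25.7 CPM in shSdc1 cells, against 9.26, 8.16 and 9.44 CPM in shRFP cells. The 6 shSdc1 libraries all lay above the 6 shRFP libraries, and log2 fold changes were 1.29 ± 0.087 (adjusted p = 1.68e-09) without and 1.59 ± 0.086 (adjusted p = 7.06e-11) with IFNγ. Itga8 (ENSMUSG00000026768), a receptor chain for nephronectin and fibronectin, was scarce at 4.19, 4.44 and 3.67 CPM in shSdc1 cells, against 0.821, 0.475 and 0.898 CPM in shRFP cells. The values with IFNγ were 4.295, 4.37 and 3.33 CPM in shSdc1 cells, against 1.32, 0.8099 and 1.48 CPM in shRFP cells. Its shSdc1 libraries again lay above all shRFP libraries, at log2 fold changes of 2.47 ± 0.26 (adjusted p = 5.67e-07) and 1.74 ± 0.25 (adjusted p = 1.68e-05), resting on 200 counts in the 3 shSdc1 libraries and 39 in the 3 shRFP libraries without IFNγ. Itgav (ENSMUSG00000027087), the chain shared by the vitronectin receptors, was abundant at 169, 178 and 173 CPM in shSdc1 cells, against 138, 130.3 and 130.1 CPM in shRFP cells. Levels with IFNγ were 174, 189 and 184 CPM in shSdc1 cells, against 129, 123 and 141 CPM in shRFP cells. The change was smaller but the groups did not overlap, with log2 fold changes of 0.38 ± 0.051 (adjusted p = 1.18e-05) and 0.48 ± 0.051 (adjusted p = 6.33e-07). Itga2b, best known as the platelet fibrinogen receptor chain, stayed under 2 CPM throughout. With IFNγ it was called higher, at 0.68 ± 0.25 (adjusted p = 0.0417), a call lost in 14 of 19 alternatives (adjusted p between 0.0389 and 0.153), among them each fit without 1 library except those without shRFP replicate 1 or 3. Without IFNγ its value was 0.31 ± 0.25 (adjusted p = 0.399), and the difference of 0.37 ± 0.36 missed the threshold (adjusted p = 0.554).

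**Figure D3:**
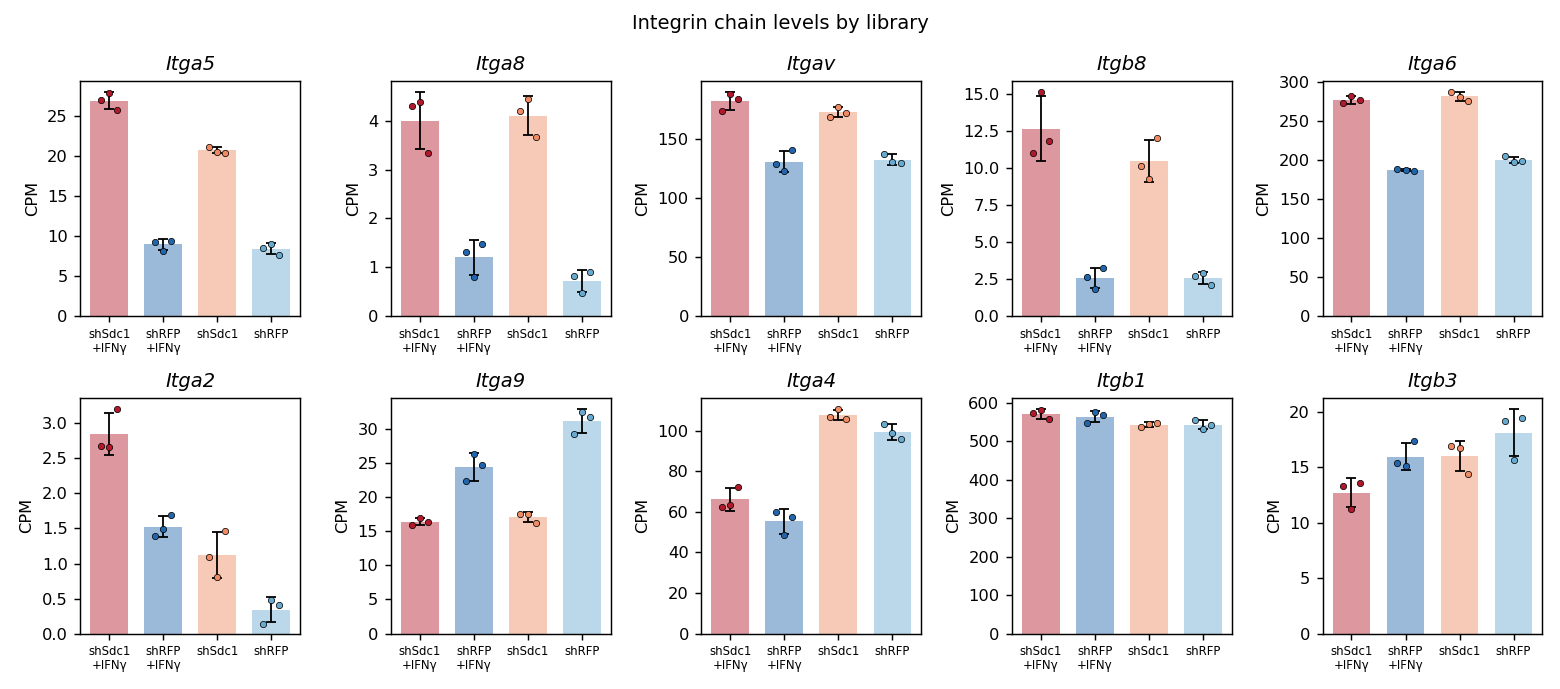
CPM of 10 integrin genes in the 4 groups; bars are means, error bars SD of 3 libraries and points single libraries. Itga5, Itga8, Itgav, Itgb8 and Itga6 stand higher in both shSdc1 groups, Itga9 lower, Itga4 is lower in both IFNγ groups, and the 12 points of Itgb1 lie between 532 and 581 CPM.

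The αv chain takes its β partner from a small set, and these partners differed in how they changed. Itgb8 (ENSMUSG00000025321), which in αvβ8 activates latent TGF-β, stood at 10.2, 9.26 and 12.03 CPM in shSdc1 cells, against 2.74, 2.91 and 2.14 CPM in shRFP cells. With IFNγ it lay at 11.01, 15.1 and 11.9 CPM in shSdc1 cells, against 2.65, 1.87 and 3.24 CPM in shRFP cells. Every shSdc1 library exceeded every shRFP library, with log2 fold changes of 2.00 ± 0.18 (adjusted p = 1.19e-07) and 2.30 ± 0.19 (adjusted p = 1.74e-08). Itgb5 (ENSMUSG00000022817), which with αv binds vitronectin, stood at 92.3, 90.01 and 86.1 CPM in shSdc1 cells, against 76.5, 76.9 and 74.6 CPM in shRFP cells. Its rises were small, at 0.24 ± 0.053 (adjusted p = 0.0024) without and 0.19 ± 0.053 (adjusted p = 0.0085) with IFNγ, and the second was lost without replicate 2 of the shSdc1 cells with IFNγ (adjusted p = 0.0742). Itgb3 (ENSMUSG00000020689), the β chain of the αvβ3 vitronectin receptor, stood at 16.95, 16.7 and 14.4 CPM in shSdc1 cells, against 19.2, 15.7 and 19.5 CPM in shRFP cells, and these groups overlapped. The values with IFNγ were 13.3, 11.2 and 13.6 CPM in shSdc1 cells, against 15.4, 15.1 and 17.4 CPM in shRFP cells, a fall at -0.33 ± 0.11 (adjusted p = 0.0251) that was lost without replicate 2 of the shSdc1 or replicate 3 of the shRFP cells with IFNγ (adjusted p up to 0.123). Itgb6, the epithelial partner of αv, had no count in any library, which allows up to 0.0151 CPM over the 12 libraries (3 of 198103466 counts; counting error only).

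Itgb1 (ENSMUSG00000025809) did not follow its α partners. It stood at 536, 544 and 549 CPM in shSdc1 cells, against 554, 532 and 543 CPM in shRFP cells, and the log2 fold change was -0.0003 ± 0.034 (adjusted p = 0.997). Levels with IFNγ were 573, 581 and 558 CPM in shSdc1 cells, against 548, 575 and 567 CPM in shRFP cells, a log2 fold change of 0.018 ± 0.034 (adjusted p = 0.716). The groups overlapped in both states. The mix of α chains around it differed all the same, and the shares without IFNγ are given first. Summed per kilobase over the 12 α chains that pair with β1, Itga6 made up 48.6 ± 0.64% in shSdc1 cells and 45.02 ± 0.27% in shRFP cells (mean ± SD, n = 3). Itga5 made up 6.53 ± 0.12% in shSdc1 cells and 3.46 ± 0.26% in shRFP cells. Itga9 made up 3.46 ± 0.1% in shSdc1 cells and 8.21 ± 0.61% in shRFP cells, so the order of Itga5 and Itga9 was turned round. Itgav made up 25.1 ± 0.62% in shSdc1 cells and 25.0 ± 0.30% in shRFP cells. Among β partners of αv, Itgb8 made up 0.585 ± 0.079% in shSdc1 cells and 0.149 ± 0.024% in shRFP cells, while Itgb1 made up 82.2 ± 0.68% in shSdc1 cells and 84.3 ± 0.18% in shRFP cells. With IFNγ Itga6 made up 48.68 ± 0.32% in shSdc1 cells and 47.29 ± 1.52% in shRFP cells, and the libraries overlapped. Itga5 then made up 8.62 ± 0.36% in shSdc1 cells and 4.13 ± 0.21% in shRFP cells. Itga9 made up 3.375 ± 0.041% in shSdc1 cells and 7.24 ± 0.75% in shRFP cells with IFNγ. All these shares describe transcripts, not dimers at the surface, and were not tested.

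Of the 5 tested laminin and collagen receptor α chains 2 rose without IFNγ and 3 with it. Itga6 (ENSMUSG00000027111), the laminin receptor chain and the most abundant α chain, stood at 287, 281 and 276 CPM in shSdc1 cells, against 205, 198 and 198 CPM in shRFP cells. With IFNγ it lay at 273, 283 and 277 CPM in shSdc1 cells, against 189, 187 and 187 CPM in shRFP cells. The libraries separated fully in both states, with log2 fold changes of 0.49 ± 0.037 (adjusted p = 9.06e-09) and 0.56 ± 0.037 (adjusted p = 1.03e-09). Itga2 (ENSMUSG00000015533), a collagen receptor chain, had only 1.09, 0.813 and 1.47 CPM in shSdc1 cells, against 0.137, 0.475 and 0.415 CPM in shRFP cells, or 55 and 17 counts in all. The values with IFNγ were 2.68, 2.66 and 3.199 CPM in shSdc1 cells, against 1.39, 1.495 and 1.69 CPM in shRFP cells. It rose in both states, at 1.78 ± 0.40 (adjusted p = 0.00215) and 0.90 ± 0.27 (adjusted p = 0.0142), but it passed the filter on low counts only through groups other than shRFP, and the second call was lost without replicate 3 of the shSdc1 or replicate 1 of the shRFP cells with IFNγ (adjusted p up to 0.0575). Itga7, a laminin receptor chain of muscle, stood at 2.95, 2.42 and 3.13 CPM in shSdc1 cells, against 0.8599, 1.43 and 1.83 CPM in shRFP cells with IFNγ and rose there, at 1.04 ± 0.26 (adjusted p = 0.00376). Without IFNγ its log2 fold change was 0.44 ± 0.28 and missed the threshold (adjusted p = 0.264). Itga1, another collagen receptor chain, was not called in either state, at 0.12 ± 0.082 and 0.18 ± 0.086 (adjusted p under 0.05 with IFNγ in 1 of 19 alternatives). Itga10, a collagen receptor chain of cartilage, was not called either, at 0.23 ± 0.26 and 0.67 ± 0.26 (adjusted p = 0.0522 with IFNγ, and under 0.05 in 8 of 19 alternatives). Of its exon bases 33.5% are shared with Gm42957 on the same strand. Itgb4, the partner of α6 in hemidesmosomes, was not called, at -0.042 ± 0.18 and -0.14 ± 0.17. Itga3 and Itga11 reached at most 0.5004 CPM in any library and were not tested, nor were the leukocyte chains Itgb2 and Itgb7.

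The chains α4 and α9, which bind overlapping ligands, went different ways. Itga9 (ENSMUSG00000039115) stood at 17.5, 17.5 and 16.3 CPM in shSdc1 cells, against 29.2, 32.5 and 31.7 CPM in shRFP cells. Levels with IFNγ were 15.9, 16.9 and 16.3 CPM in shSdc1 cells, against 22.3, 26.4 and 24.7 CPM in shRFP cells. All 6 shSdc1 libraries lay below all 6 shRFP libraries, with log2 fold changes of -0.86 ± 0.075 (adjusted p = 4.91e-08) and -0.58 ± 0.077 (adjusted p = 9.54e-06), and it was the single integrin chain that fell in both states. Itga4 (ENSMUSG00000027009), the chain of the VCAM-1 receptor VLA-4, stood at 107, 111 and 106 CPM in shSdc1 cells, against 104, 98.95 and 95.8 CPM in shRFP cells, a difference that missed the threshold (adjusted p = 0.226). With IFNγ it lay at 62.7, 63.3 and 72.4 CPM in shSdc1 cells, against 60.1, 48.5 and 57.5 CPM in shRFP cells. It rose there at 0.26 ± 0.071 (adjusted p = 0.0083), a call lost without replicate 3 of the shSdc1 or replicate 2 of the shRFP cells with IFNγ (adjusted p up to 0.0665).

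Of the talins, kindlin-2 and vinculin, which switch integrins on and hold them to actin, all 4 rose in both states. Talin-1 (Tln1) stood at 659.9, 651 and 629.6 CPM in shSdc1 cells, against 547, 559 and 586 CPM in shRFP cells. Its log2 fold changes were 0.20 ± 0.042 (adjusted p = 0.00137) without and 0.18 ± 0.042 (adjusted p = 0.00197) with IFNγ. Talin-2 (Tln2) rose at 0.20 ± 0.046 and 0.19 ± 0.046, with adjusted p of 0.00284 and 0.00321. Kindlin-2 (Fermt2) rose at 0.19 ± 0.045 (adjusted p = 0.0034) and 0.14 ± 0.045 (adjusted p = 0.0193), and the second call was lost in 6 of 19 alternatives (adjusted p up to 0.105). These were leave-one-out fits without replicates 1 or 2 of the shSdc1 or 1 or 3 of the shRFP cells with IFNγ, the fit with no filter and that of the compared groups alone. Vinculin (Vcl), whose promoter is printed above, stood at 67.5, 67.1 and 67.4 CPM in shSdc1 cells, against 48.00, 47.8 and 52.4 CPM in shRFP cells. The values with IFNγ were 81.3, 77.2 and 78.1 CPM in shSdc1 cells, against 53.2, 53.95 and 53.4 CPM in shRFP cells. The libraries did not overlap, and log2 fold changes were 0.45 ± 0.048 (adjusted p = 7.54e-07) and 0.56 ± 0.048 (adjusted p = 3.43e-08). In the GENCODE reference 25.5% of its exon bases overlap Ap3m1 on the other strand (94.8 to 114 CPM over the libraries), and since the strand setting is not given, reads from the shared bases cannot be told apart.

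The kinases and scaffolds did not move as a block. p130Cas (Bcar1), the scaffold that Src phosphorylates when the protein is stretched, stood at 105, 97.3 and 98.2 CPM in shSdc1 cells, against 70.4, 76.2 and 72.97 CPM in shRFP cells. Levels with IFNγ were 112, 112 and 112 CPM in shSdc1 cells, against 75.5, 74.1 and 77.3 CPM in shRFP cells. It rose in both states, at 0.45 ± 0.046 (adjusted p = 3.89e-07) and 0.56 ± 0.046 (adjusted p = 1.76e-08). Src (ENSMUSG00000027646) stood at 58.8, 58.1 and 54.1 CPM in shSdc1 cells, against 69.4, 72.1 and 74.4 CPM in shRFP cells, and fell at -0.34 ± 0.062 (adjusted p = 0.000379). With IFNγ it lay at 72.6, 69.3 and 60.6 CPM in shSdc1 cells, against 70.8, 65.9 and 65.4 CPM in shRFP cells, and the groups overlapped, at 0.0047 ± 0.062 (adjusted p = 0.963). Focal adhesion kinase (Ptk2) stood at 165, 165 and 159 CPM in shSdc1 cells, against 151, 148 and 154 CPM in shRFP cells, without overlap. It was not called in any comparison, with knockdown log2 fold changes of 0.11 ± 0.043 (adjusted p = 0.0624) and 0.076 ± 0.043 (adjusted p = 0.185). The first was under 0.05 in 2 of 19 alternatives (adjusted p down to 0.0354). Paxillin (Pxn) stood at 73.4, 73.6 and 68.4 CPM in shSdc1 cells, against 64.1, 61.1 and 65.9 CPM in shRFP cells with IFNγ, and rose there at 0.17 ± 0.064 (adjusted p = 0.0402), a call lost in 8 of 19 alternatives (adjusted p between 0.0253 and 0.159), among them those without shSdc1 replicate 3, shRFP replicate 1, or replicate 1 or 2 of either group with IFNγ. Without IFNγ its value was -0.17 ± 0.064 (adjusted p = 0.0601, and under 0.05 in 3 of 19 alternatives, down to 0.00801). α-Parvin (Parva) was called higher without IFNγ, at 0.13 ± 0.048 (adjusted p = 0.0498), and lost the call in 12 of 19 alternatives (adjusted p between 0.0171 and 0.194). Of the fits without 1 library it was called in those without shSdc1 replicate 3 or without replicate 2 or 3 of the shRFP cells with IFNγ. PINCH1 (Lims1) is described with the interaction. Ilk, the kinase-like core of that complex, had 7 counts in the 12 libraries together and was not tested, while 89.7% of its exon bases overlap Taf10 and Rrp8 on the other strand (14.3 to 21.9 and 30.8 to 42.7 CPM). The part of that overlap in its count was not tested.

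The actin linkers were among the most abundant of these genes, and most of them rose. Filamin A (Flna) stood at 1433, 1444 and 1412 CPM in shSdc1 cells, against 1137, 1128 and 1155 CPM in shRFP cells. The values with IFNγ were 1574, 1487 and 1494 CPM in shSdc1 cells, against 1266, 1264 and 1148 CPM in shRFP cells. Every shSdc1 library lay above every shRFP library, at log2 fold changes of 0.33 ± 0.038 (adjusted p = 2.28e-06) and 0.31 ± 0.038 (adjusted p = 3.71e-06). α-Actinin-1 (Actn1) stood at 162, 159.5 and 159 CPM in shSdc1 cells, against 118, 124 and 120.2 CPM in shRFP cells, and rose at 0.41 ± 0.042 (adjusted p = 4.07e-07) and 0.45 ± 0.042 (adjusted p = 9.18e-08). Tensin-1 (Tns1), which binds β tails at fibrillar adhesions, stood at 54.4, 55.7 and 51.8 CPM in shSdc1 cells, against 40.9, 41.3 and 38.6 CPM in shRFP cells. It rose at 0.42 ± 0.054 (adjusted p = 7.01e-06) and 0.53 ± 0.054 (adjusted p = 2.91e-07), with no overlap between groups. α-Actinin-4 (Actn4) rose without IFNγ at 0.16 ± 0.034 (adjusted p = 0.00121), and with IFNγ its value was 0.044 ± 0.034 (adjusted p = 0.34). Zyxin (Zyx), a LIM protein of mature adhesions, rose in both states, at 0.28 ± 0.050 (adjusted p = 0.000334) and 0.60 ± 0.051 (adjusted p = 3.12e-08). Tensin-3 (Tns3) was called lower with IFNγ, at -0.11 ± 0.043 (adjusted p = 0.0499), and that call was lost in 16 of 19 alternatives (adjusted p between 0.0131 and 0.117). Of the fits without 1 library it was called in those without shSdc1 replicate 3 or replicate 3 of the shRFP cells with IFNγ.

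Genes that work beside these members were counted from lists chosen by function, with earlier results of these data known. Of 22 tested matrix ligands of integrins 16 rose and 3 fell without IFNγ, with a median log2 fold change of 0.92 against 0.00 over all tested genes, and 18 rose and 3 fell with IFNγ, with a median of 1.08 against 0.02. Of all tested genes 14% were higher and 14.6% lower without IFNγ, and 18.9% were higher and 17.4% lower with it. Of the 22 ligands 4 passed the filter on low counts through shSdc1 libraries alone, Ltbp1 among them, so they had to differ, and these counts and medians are a description. All 32 tested genes of the main list had enough libraries over the minimum on both sides. Fibronectin (Fn1), the ligand of α5β1, stood at 291, 302 and 292 CPM in shSdc1 cells, against 57.6, 67.2 and 66.8 CPM in shRFP cells. It rose at 2.21 ± 0.055 (adjusted p = 2.26e-15) and 2.30 ± 0.053 (adjusted p = 6.16e-16). Osteopontin (Spp1), a ligand of αv integrins and of α9β1, rose at 2.65 ± 0.26 (adjusted p = 3.06e-07) and 3.43 ± 0.24 (adjusted p = 2.50e-09), and was scarce at 4.03 ± 0.882 CPM in shSdc1 and 0.6297 ± 0.0684 CPM in shRFP cells without IFNγ (mean ± SD, n = 3). Ltbp1, a matrix carrier of latent TGF-β, had 79 counts in shSdc1 and 9 in shRFP cells without IFNγ, and 112 in shSdc1 and 14 in shRFP cells with it. Col1a2, a collagen chain of the same list, went the other way. It stood at 12.47 ± 0.707 CPM in shSdc1 and 40.45 ± 2.05 CPM in shRFP cells without IFNγ (mean ± SD, n = 3). Its falls were -1.70 ± 0.078 (adjusted p = 1.16e-11) without and -1.26 ± 0.089 (adjusted p = 2.55e-09) with IFNγ. Of 26 tested actin linkers and LIM proteins outside the 38 genes, 10 rose and 6 fell without IFNγ (38.5% and 23.1%), with a median of 0.07 against 0.00 over all tested genes, or 9 and 5 without shSdc1 replicate 3. With IFNγ 12 rose and 6 fell (46.2% and 23.1%), with a median of 0.07 against 0.02. Through shSdc1 libraries alone 3 of them passed the filter (Fhl2, Fblim1 and Actn2). Migfilin (Fblim1), which binds filamin and kindlin-2, had 94 counts in shSdc1 and 29 in shRFP cells without IFNγ, and 159 in shSdc1 and 18 in shRFP cells with it. Of 17 tested actomyosin genes and targets of SRF or YAP, 9 rose and 1 fell without IFNγ (52.9% and 5.88%), with a median of 0.20, or 7 and 1 without shSdc1 replicate 3. With IFNγ 7 rose and 0 fell (41.2% higher), with a median of 0.17. The matricellular protein Ccn1 rose at 1.17 ± 0.063 (adjusted p = 7.77e-11) and 1.33 ± 0.062 (adjusted p = 9.36e-12). Others of this list did not follow it. Ccn2 was not called without IFNγ, at 0.35 ± 0.20 (adjusted p = 0.221), and rose with it, at 0.67 ± 0.25 (adjusted p = 0.041). Amotl2 was the gene that fell without IFNγ, at -0.25 ± 0.052 (adjusted p = 0.00135), and stood at 0.029 ± 0.053 with it (adjusted p = 0.705). Transgelin-2 (Tagln2), which passed the filter through shSdc1 libraries alone, had 183 counts in shSdc1 and 18 in shRFP cells without IFNγ, and 165 in shSdc1 and 12 in shRFP cells with it.

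Signalling genes, activators and inactivators, and membrane partners of integrins were called in both directions. Of 30 tested kinases, adaptors and GTPase regulators 3 rose and 4 fell without IFNγ and 7 rose and 7 fell with it (3 and 2 without IFNγ when shSdc1 replicate 3 was left out). Ptk2b, the relative of focal adhesion kinase, rose at 0.59 ± 0.099 (adjusted p = 0.000166) and 0.66 ± 0.098 (adjusted p = 3.20e-05). The adaptor Crkl, which docks on p130Cas, fell at -0.43 ± 0.045 (adjusted p = 5.42e-07) without and -0.37 ± 0.045 (adjusted p = 3.13e-06) with IFNγ. Parvb, the relative of α-parvin, fell at -0.18 ± 0.048 (adjusted p = 0.00771) without and -0.53 ± 0.049 (adjusted p = 9.90e-08) with it. Of 14 tested integrin activators and inactivators 2 rose and 3 fell without IFNγ and 3 rose and 4 fell with it. Of 12 tested membrane partners 4 rose and 1 fell without IFNγ and 4 rose and 2 fell with it. In these 3 lists the shares called in each direction were within the range of 8.33 to 33.3%, against 14% higher and 14.6% lower of all tested genes without IFNγ and 18.9% and 17.4% with it, and the medians lay between -0.05 and 0.05. Of the 6 other integrin chains (Itgal, Itgam, Itgax, Itgad, Itgae and the related Itgbl1) 1 was tested and 0 were called.

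IFNγ changed fewer of these genes. In shRFP cells 6 of the 32 rose and 5 fell, or 34.4%, close to the 31.6% of all tested genes (17.2% higher and 14.4% lower). In shSdc1 cells 11 rose and 2 fell, or 40.6%, against 30.5% of all tested genes (17.5% higher and 13% lower). Without shSdc1 replicate 3 the counts were 7 higher and 2 lower in shSdc1 cells and 6 higher and 5 lower in shRFP cells. With upper-quartile scaling the split was 2 higher and 6 lower in shRFP cells and 8 higher and 3 lower in shSdc1 cells. These comparisons share their libraries with the knockdown comparisons above. Genes called higher in both cell types were Itga2, Tln2, Actn1 and Actn4, and Itga4 was lower in both.

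**Figure D4:**
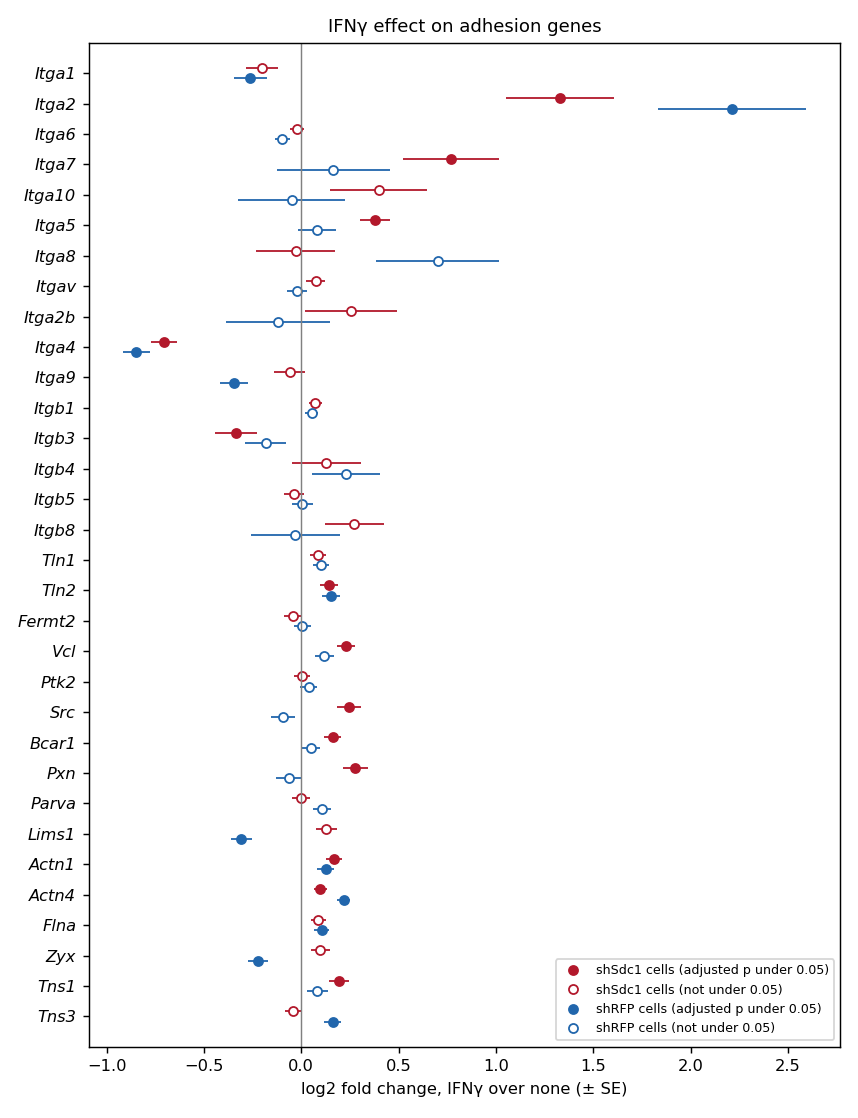
Log2 fold change with IFNγ over none (± SE) for the 32 tested genes, in shSdc1 and in shRFP cells; filled points have an adjusted p under 0.05. Itga4 lies farthest left and Itga2 farthest right in both cell types, and most other points lie within 0.4 of 0.

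Itga4 fell most. It stood at 62.7, 63.3 and 72.4 CPM with IFNγ, against 107, 111 and 106 CPM without, in shSdc1 cells. In shRFP cells it stood at 60.1, 48.5 and 57.5 CPM with it, against 104, 98.95 and 95.8 CPM without. Libraries with and without IFNγ did not overlap, at log2 fold changes of -0.71 ± 0.068 (adjusted p = 1.56e-07) in shSdc1 and -0.85 ± 0.069 (adjusted p = 1.47e-08) in shRFP cells. Itga2 rose in both, to 2.68, 2.66 and 3.199 CPM with IFNγ, against 1.09, 0.813 and 1.47 CPM without, in shSdc1 cells. Its log2 fold changes were 1.33 ± 0.28 (adjusted p = 0.00124) in shSdc1 and 2.21 ± 0.38 (adjusted p = 0.000202) in shRFP cells. Since its shRFP level without IFNγ rests on 17 counts, the size of the second is uncertain. Itga2 passed the filter on low counts only through the other groups, so its rise in shRFP cells is a description. Itga5 rose with IFNγ in shSdc1 cells, at 0.38 ± 0.077 (adjusted p = 0.00101), and its value in shRFP cells was 0.082 ± 0.097 (adjusted p = 0.587). The difference between the 2 effects was 0.30 ± 0.12 and missed the threshold (adjusted p = 0.14). Itga9 fell in shRFP cells, at -0.35 ± 0.072 (adjusted p = 0.00121), with -0.059 ± 0.080 in shSdc1 cells (adjusted p = 0.622) and a difference of 0.29 ± 0.11 (adjusted p = 0.0972). Itgb3 fell in shSdc1 cells at -0.33 ± 0.11 (adjusted p = 0.0248), a call lost without replicate 1 or 2 without IFNγ or replicate 2 with it (adjusted p up to 0.131). Itga7 rose in shSdc1 cells at 0.77 ± 0.25 (adjusted p = 0.024), a call lost in 5 of 19 alternatives (adjusted p up to 0.0847), among them those without shSdc1 replicate 1 or 2 or without replicate 1 or 3 with IFNγ. Itga8 had a log2 fold change of 0.70 ± 0.32 in shRFP cells (adjusted p = 0.102) and -0.029 ± 0.20 in shSdc1 cells (adjusted p = 0.933). Itga1 fell in shRFP cells at -0.26 ± 0.085 (adjusted p = 0.0248), a call lost without shRFP replicate 1 or 2 or replicate 2 with IFNγ (adjusted p up to 0.0834).

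Among the linkers, vinculin rose with IFNγ in shSdc1 cells at 0.23 ± 0.047 (adjusted p = 0.000957), with 0.12 ± 0.049 in shRFP cells (adjusted p = 0.0747) and a difference of 0.11 ± 0.068 (adjusted p = 0.318). Actn4 rose in shRFP cells at 0.22 ± 0.034 (adjusted p = 7.69e-05). In shSdc1 cells it rose at 0.098 ± 0.034 (adjusted p = 0.0362), a call lost in 10 of 19 alternatives, among them the fits without any 1 of the 6 shSdc1 libraries (adjusted p up to 0.239). Actn1 rose at 0.17 ± 0.041 (adjusted p = 0.00444) in shSdc1 and 0.12 ± 0.042 (adjusted p = 0.0307) in shRFP cells, and talin-2 at 0.14 ± 0.046 (adjusted p = 0.0246) in shSdc1 and 0.15 ± 0.046 (adjusted p = 0.0171) in shRFP cells. In shRFP cells the Actn1 call was lost in 7 of 19 alternatives, among them those without shRFP replicate 1 or 3 or replicate 1 or 2 with IFNγ (adjusted p up to 0.222). The Tln2 call was lost there in 5, among them those without shRFP replicate 1 or 2 or replicate 1 with IFNγ (adjusted p up to 0.121). In shSdc1 cells it was also lost in 5, among them those without replicate 1 or 3 in either state (adjusted p up to 0.118). Flna was called in shRFP cells, at 0.10 ± 0.038 (adjusted p = 0.0426), and lost the call in 11 of 19 alternatives (adjusted p up to 0.337). These held the fits without any 1 shRFP library, replicate 1 or 2 of the shRFP cells with IFNγ, shSdc1 replicate 1 or 2, or replicate 2 of the shSdc1 cells with IFNγ. Its value in shSdc1 cells was 0.087 ± 0.038 (adjusted p = 0.0949). Tns3 rose in shRFP cells at 0.16 ± 0.043 (adjusted p = 0.00736), a call lost with upper-quartile scaling (adjusted p = 0.0663). In shSdc1 cells Bcar1 rose at 0.16 ± 0.045 (adjusted p = 0.0105) and Tns1 at 0.19 ± 0.052 (adjusted p = 0.0082). The first call was lost without shSdc1 replicate 2 or 3 and with upper-quartile scaling, and the second without shSdc1 replicate 3 (adjusted p up to 0.0559 and 0.0644). Itgb1, Ptk2, Itga10 and Itgb4 were called in no comparison.

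The lists around these genes were counted for IFNγ as well, against the 17.5% higher and 13% lower of all tested genes in shSdc1 cells and 17.2% and 14.4% in shRFP cells. Of 12 membrane partners 7 rose and 1 fell in shSdc1 cells (58.3% and 8.33%; 4 and 0 without shSdc1 replicate 3), and 6 rose and 1 fell in shRFP cells (50% and 8.33%). Of 22 matrix ligands 10 rose and 3 fell in shSdc1 cells (45.5% and 13.6%), and 7 rose and 3 fell in shRFP cells (4 and 4 with upper-quartile scaling). Of 26 actin linkers 9 rose and 6 fell in shSdc1 cells, a split that turned to 6 and 8 with upper-quartile scaling and to 5 and 6 without shSdc1 replicate 3. In shRFP cells 4 of them rose and 7 fell. Of 17 actomyosin genes 7 rose and 2 fell in shSdc1 cells (5 and 0 without shSdc1 replicate 3), and 8 rose and 2 fell in shRFP cells. Of 14 activators and inactivators 3 rose and 3 fell in shSdc1 cells (0 and 3 without shSdc1 replicate 3). In shRFP cells 1 rose and 2 fell, or 0 and 6 with upper-quartile scaling. Of 30 kinases, adaptors and GTPase regulators 5 rose and 6 fell in shSdc1 cells (16.7% and 20%). In shRFP cells 6 rose and 7 fell (20% and 23.3%), or 3 and 9 with upper-quartile scaling.

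The interaction, which asks whether the knockdown effect differed with and without IFNγ, called 5 of the 32 genes, 4 higher and 1 lower, or 15.6%, against 9.73% of all tested genes (4.58% higher and 5.15% lower). All 5 were kinase, scaffold or linker genes. Of the 16 tested integrin chains 0 were called by edgeR, with Itga5 and Itga9 at an unadjusted p under 0.05 (0.0286 and 0.0156). The count was 5 with the DESeq2 Wald test and 2 to 5 when single libraries were left out, with 2 called (2 higher and 0 lower) without shSdc1 replicate 3 or without replicate 1 or 2 of the shSdc1 cells with IFNγ.

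Lims1 (ENSMUSG00000019920), which encodes PINCH1, stood at 153, 165 and 152 CPM in shSdc1 cells, against 124, 118 and 136 CPM in shRFP cells with IFNγ. Without IFNγ it stood at 143, 142 and 144 CPM in shSdc1 cells, against 159, 162 and 147 CPM in shRFP cells. The shSdc1 libraries lay above the shRFP libraries with IFNγ and below them without. The knockdown effects were 0.31 ± 0.054 (adjusted p = 0.000171) with and -0.13 ± 0.053 without IFNγ, and the second missed the threshold (adjusted p = 0.091) but passed it in 3 of 19 alternatives. Their difference was 0.44 ± 0.076 (adjusted p = 0.00164). IFNγ itself lowered Lims1 in shRFP cells, at -0.31 ± 0.054 (adjusted p = 0.000237), and its value in shSdc1 cells was 0.13 ± 0.053 (adjusted p = 0.0807). Zyx (ENSMUSG00000029860) stood at 178, 186 and 175 CPM in shSdc1 cells, against 121, 109.8 and 125 CPM in shRFP cells with IFNγ. Without IFNγ it stood at 173, 160.3 and 169 CPM in shSdc1 cells, against 134, 141 and 140.3 CPM in shRFP cells. The shSdc1 libraries were higher in both states, and the gap was wider with IFNγ, by 0.32 ± 0.071 (adjusted p = 0.00862). IFNγ lowered Zyx in shRFP cells, at -0.22 ± 0.051 (adjusted p = 0.00252), against 0.098 ± 0.050 in shSdc1 cells (adjusted p = 0.15). The calls of Lims1 and Zyx held in all 18 alternatives.

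**Figure D5:**
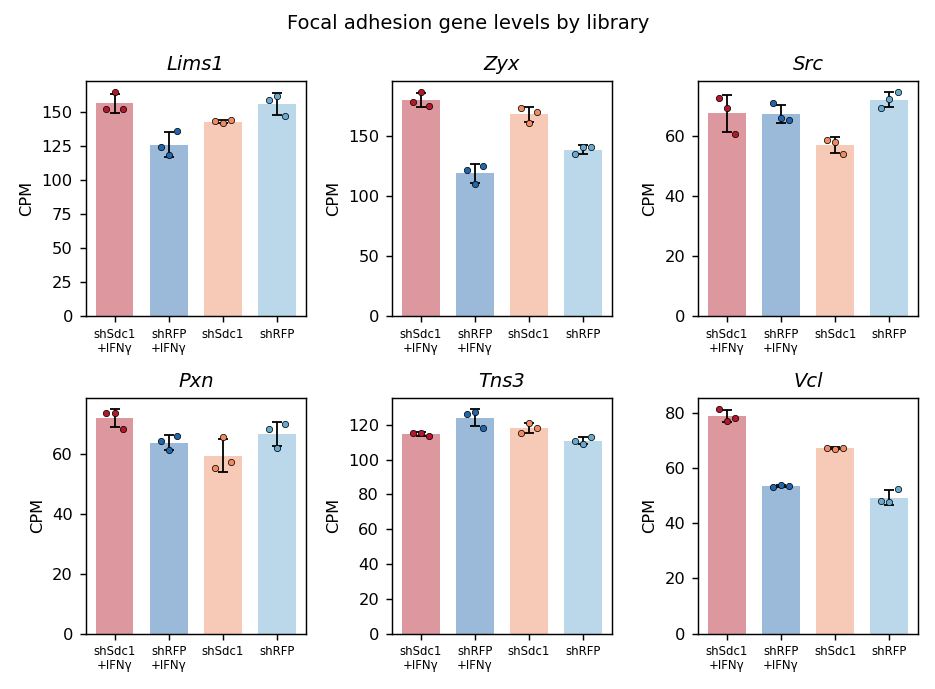
CPM of 6 focal adhesion genes in the 4 groups; bars are means, error bars SD of 3 libraries and points single libraries. Lims1 and Zyx are lowest in shRFP cells with IFNγ, Src and Pxn have their lowest means in shSdc1 cells without IFNγ, and Vcl is higher in both shSdc1 groups.

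Src and paxillin both had knockdown effects that were higher with IFNγ. IFNγ raised Src in shSdc1 cells, to 72.6, 69.3 and 60.6 CPM with it, against 58.8, 58.1 and 54.1 CPM without, at 0.25 ± 0.062 (adjusted p = 0.00498). In shRFP cells its libraries with and without IFNγ overlapped, at -0.094 ± 0.061 (adjusted p = 0.265). The difference was 0.34 ± 0.087 (adjusted p = 0.0196). Pxn in shSdc1 cells stood at 73.4, 73.6 and 68.4 CPM with it, against 55.1, 65.6 and 57.2 CPM without, at 0.28 ± 0.064 (adjusted p = 0.00267). In shRFP cells its value was -0.064 ± 0.064 (adjusted p = 0.481), and the difference was 0.34 ± 0.090 (adjusted p = 0.0238). Tns3 went the other way, at -0.11 ± 0.043 with and 0.091 ± 0.043 without IFNγ, a difference of -0.20 ± 0.061 (adjusted p = 0.0423). The call of Src was lost without shSdc1 replicate 3, shRFP replicate 2 or replicate 1 or 2 of the shSdc1 cells with IFNγ, with an adjusted p up to 0.063. That of Pxn was lost without shSdc1 replicate 1 or 3, shRFP replicate 1 or 3, replicate 1 or 2 of the shSdc1 cells with IFNγ or replicate 2 of the shRFP cells with IFNγ, with an adjusted p up to 0.0798. That of Tns3 was lost in 13 of 18 alternatives, with an adjusted p up to 0.0986, and of the fits without 1 library it held without shRFP replicate 3 or replicate 3 of the shRFP cells with IFNγ.

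Among the neighbouring lists, 3 of 22 matrix ligands, 3 of 12 membrane partners and 2 of 26 actin linkers had a higher signed knockdown effect with IFNγ (13.6%, 25% and 7.69%, against 4.58% of all tested genes). For the ligand Col1a2 and the partner Slc3a2 this was a smaller fall. Col1a2 stood at -1.70 ± 0.078 without and -1.26 ± 0.089 with IFNγ. Slc3a2 stood at -0.48 ± 0.049 without and -0.11 ± 0.049 with it, the second not called (adjusted p = 0.0805). Thrombospondin-1 (Thbs1) had a difference of 1.31 ± 0.099 (adjusted p = 6.68e-07), with 140.4, 139 and 124 CPM in shSdc1 and 24.5, 25.2 and 25.00 CPM in shRFP cells with IFNγ. Cd47, which binds thrombospondin-1 and associates with αvβ3, differed by 0.59 ± 0.088 (adjusted p = 0.000437), and syndecan-4 (Sdc4), the syndecan of focal adhesions, by 0.40 ± 0.085 (adjusted p = 0.00617). The actin linker palladin (Palld) differed by 1.41 ± 0.30 (adjusted p = 0.007). Lower effects with IFNγ were found for 1 of 12 membrane partners, Cd151 at -0.21 ± 0.063 (adjusted p = 0.0375) (named after its values were seen; 0 lower with upper-quartile scaling), for 1 of 14 activators and inactivators, Itgb1bp1 at -0.40 ± 0.12 (adjusted p = 0.0474) (0 lower without shSdc1 replicate 3 or with upper-quartile scaling), and for 1 of 30 kinases and adaptors, Parvb at -0.35 ± 0.069 (adjusted p = 0.00416), against 5.15% of all tested genes. In the list of actomyosin genes Amotl2 differed by 0.28 ± 0.075 (adjusted p = 0.0251) and Myl12a by -0.48 ± 0.086 (adjusted p = 0.00213).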

How the data were processed

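RNA was sequenced in 12 libraries, and the authors deposited whole-number read counts per gene. Per the submitters' processing notes, the tools were Trimmomatic, HTSeq and HISAT2 2.0.5, on build GRCm39, and the strand setting is not given in the sources used here. The table held 56093 entries: 52083 with a gene symbol, 3333 Ensembl identifiers without one and 677 assembled loci. Libraries totalled 14337771 to 21548940 counts, and 0 pairs were identical.

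Counts were filtered with filterByExpr (minimum count 10, minimum total 15), which left 14089 genes, scaled by TMM and fitted with edgeR 4.0.16 (R 4.3.3) with 1 coefficient per group over all 12 libraries and 8 residual degrees of freedom. Quasi-likelihood tests were two-sided with Benjamini-Hochberg adjustment over all tested genes, and the SE is the log2 fold change divided by the root of F. Pipeline and thresholds were tested on simulated data. Levels per kb use the summed exon length in the GENCODE annotation of GRCm38, which is not the build of the counts. Promoter sequences and their coordinates come from RefSeq on GRCm38.p6.

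The 38 genes and all lists were chosen with earlier results of these data known, and the list counts are therefore no independent evidence. From each list around them, up to 3 called genes with the largest absolute log2 fold change and 1 CPM or more on average in a group compared could be named. Alternatives were other scalings, DESeq2 1.42.0, no filter, a block for the replicate number, a fit of the compared groups alone, each library left out, and a fit without the assembled loci and ENSMUSG00000119584, which was chosen after seeing the data. No adjusted p was computed over the lists alone, and the limit for 0 counts covers counting error only, as PCR can copy a molecule more than once.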

Additional observations from a re-analysis of the deposited data

Results flagged for a closer look

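For 5 adhesion genes the knockdown effect itself differed with and without IFNγ by edgeR's interaction test, over 3 libraries in each of the 4 groups. Lims1 differed by 0.44 ± 0.076 on the log2 scale (adjusted p = 0.00164) and Zyx by 0.32 ± 0.071 (adjusted p = 0.00862). Src differed by 0.34 ± 0.087 (adjusted p = 0.0196) and Pxn by 0.34 ± 0.090 (adjusted p = 0.0238). Tns3 differed by -0.20 ± 0.061 (adjusted p = 0.0423), lower with IFNγ. The Lims1 and Zyx calls held in all 18 alternatives, and those of Src, Pxn and Tns3 were lost in 4, 7 and 13 of them.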

How the results depend on the processing

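No called value of these genes changed sign under any alternative, while 26 gene results that were not called, of 17 genes, did so under at least 1. Of 3008 checks of a gene's call in a comparison 2836 left it as it was, 141 lost it and 31 gained one, and 123 of 160 gene results kept their side of the threshold throughout. When single libraries were left out, the number of called genes among the 32 ranged from 19 to 21 for the knockdown without IFNγ, 19 to 23 with IFNγ, 7 to 13 for IFNγ in shRFP cells, 9 to 15 for IFNγ in shSdc1 cells and 2 to 5 for the interaction. IFNγ in shRFP cells gave 7 calls without shRFP replicate 1, and the interaction gave 3 without shSdc1 replicate 1, shRFP replicate 1 or 2, or replicate 2 of the shRFP cells with IFNγ. The cause was not tested. With upper-quartile scaling all genes split into 1759 higher and 2811 lower for IFNγ in shRFP cells (2422 and 2024 with TMM) and 2047 and 2495 in shSdc1 cells (2469 and 1826).

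Libraries with the same replicate number had a median correlation of deviations of -0.009 over 18 pairs, from -0.116 to 0.087. Pairs with different numbers had a median of -0.008 over 36 pairs, from -0.091 to 0.123. What the number stands for is not stated in the labels. Deviations from means of 3 libraries cannot exclude a shared batch. With the number as a block the counts were 19 and 21 for the knockdown without and with IFNγ, 10 and 12 for IFNγ in shRFP and shSdc1 cells, and 4 for the interaction. With 3 libraries a group, genes under about 1 CPM, such as Itga2 in shRFP cells, rest on few counts.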
